A study of Mus musculus with 21 samples.

Results

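The genes described here encode the proteins of the mitochondrial ribosome in mouse macrophages that were grown in culture from bone marrow. They were found by their symbols, as every gene whose symbol begins with Mrpl (large subunit) or Mrps (small subunit) followed by a digit. The count table holds 82 such genes, of which 5 pseudogenes were left out, and Mrpl53 was left out because it had 0 counts in every library. This gave 76 members of the 47069 gene identifiers, 47 named Mrpl and 29 named Mrps. All 76 passed the filter on low counts, under which 15581 genes were tested.

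The marrow donors were C57BL/6 mice of wild-type genotype, aged 8 to 10 weeks, and M-CSF, which drives growth of macrophages, was present in every culture. Cells labelled TNF received tumour necrosis factor (TNF), those labelled IL received interleukins 4 and 13 (IL-4 and IL-13), and those labelled IL_TNF received all 3 cytokines, each at 10 ng/ml, for 6 h or 24 h. With the untreated cells, labelled Ctrl_0h and sampled at 0 h, this made 7 groups of 3 libraries, TNF_6h, TNF_24h, IL_TNF_6h, IL_6h, IL_TNF_24h, IL_24h and Ctrl_0h. A comparison with Ctrl_0h therefore also carries the time in culture. The labels do not say whether replicates came from separate mice or cultures, so a p-value measures the spread between these libraries only, which may be technical.

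The mitochondrial ribosome translates the few messenger RNAs of the mitochondrial genome, all of which encode subunits of the respiratory chain and the ATP synthase. Its ribosomal RNAs are encoded in mitochondrial DNA, whereas all its proteins are encoded in the nucleus and imported. Many of these proteins descend from bacterial ribosomal proteins, and others were added in the mitochondrial lineage. Macrophages are known to depend more on oxidative phosphorylation when activated by IL-4 and more on glycolysis under inflammatory activation.

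By the uniform ribosomal protein names, 49 members belong to the large subunit, 26 to the small subunit and 1 to neither. The large subunit includes Mrps30 and Mrps18a despite their symbols, and the member in neither is Mrps36, now known as a component of the alpha-ketoglutarate dehydrogenase complex. By the same names, 45 subunit members have a bacterial counterpart and 30 have none and are called specific to mitochondria here. The 30 include Mrps18a and Mrps18b, which resemble bacterial S18 in sequence but bear names of the second kind. The members lie on 17 chromosomes. Of the 76, 23 overlap another annotated gene, and as the strand used for counting is not given in the sources used here, reads of such pairs cannot always be told apart. The members' proteins are short, with a median coding length of 199 codons (range 88 to 443), against 456 for the 12848 tested genes with a length. Of the 76, 56 were among the 3218 shortest of those genes, which have 26 to 281 codons.

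The libraries held 28.1 to 48.7 M (mega) counts, and the least-counted member still had 121 counts in its lowest library. Ctrl_0h replicate 2 had counts in 27761 genes, against 16996 to 20631 in the other libraries. The 12 libraries with IL-4 and IL-13 stood apart from the other 9: the last 86 identifiers of the table had counts (10263 to 19757 in total per library) in those 12 only. The 12 were also lower in genes with a short coding sequence. Relative to each gene's mean over all libraries, the median log2 level of the 3218 genes of 281 codons or fewer was -0.14 to -0.30 in the 12, against 0.06 to 0.43 in the other 9. The IL_24h and IL_TNF_24h libraries further differed in sex-linked genes, with Xist at 0.145 CPM (counts scaled to a common library total) or less and the Y-linked Ddx3y at 41.8 to 50.9 CPM, while the other 15 libraries had at least 162 CPM of Xist and no counts of Ddx3y. Ifi202b, a gene whose expression varies between mouse strains, was at 30.3 to 64.1 CPM in the IL_6h and IL_TNF_6h libraries only. Whether all libraries came from the strain stated for the donors was not tested. A list of 10 macrophage markers, used to check the labelled cell type, summed to 12583 to 44261 CPM per library, and no other cell type's markers summed to more than 18.2 CPM. In RNA from a whole culture, fewer cells of a type and less RNA per cell cannot be told apart.

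Levels are given as CPM on library totals adjusted with the TMM factors of edgeR, and differences as log2 fold changes ± standard error (SE). A gene was called raised or lowered where its Benjamini-Hochberg adjusted p in edgeR's quasi-likelihood test, over all 15581 genes, was under 0.05, and each adjusted p below comes from that test. Genes named for the largest called changes were picked by these same values, so groups without overlap describe them and are no added support. The share of all genes without overlap was not counted.

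Summed over the 76 members, the level was 3443, 3142 and 3118 CPM in the TNF_6h libraries and 3655, 3126 and 2461 CPM in the TNF_24h libraries. The IL_TNF_6h libraries had 1982, 1908 and 1790 CPM and the IL_6h libraries 1982, 1620 and 1909 CPM. At 24 h the sums were 2018, 1881 and 1920 CPM in the IL_TNF_24h libraries, 1616, 1699 and 1828 CPM in the IL_24h libraries, and in the untreated Ctrl_0h libraries 3647, 3844 and 3436 CPM. Every library with IL-4 and IL-13 was thus below every library without them, and among the TNF_24h libraries replicate 3 was the lowest. This is the same division of the libraries as the one by short coding sequences, so the treatment and the set of libraries cannot be told apart in a comparison with Ctrl_0h. TNF against Ctrl_0h, and IL_TNF against IL at one time, lie within one set.

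**Figure D1:**
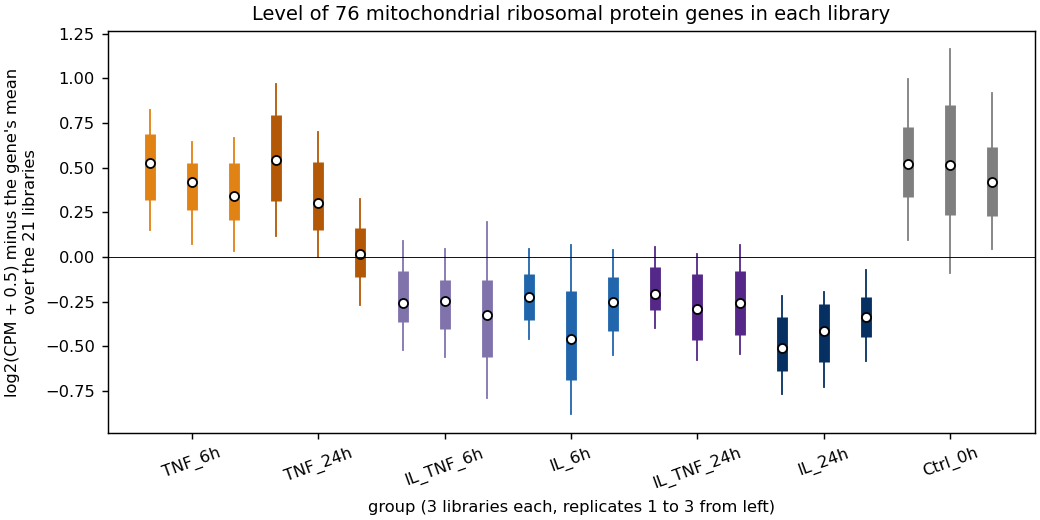
Level of the 76 genes in each of the 21 libraries, as log2(CPM + 0.5) minus the gene's mean over all libraries (dot, median over the genes; thick bar, middle 50% of the genes; thin line, 10th to 90th percentile). The 12 libraries with IL-4 and IL-13 lie below the other 9, and TNF_24h replicate 3 is the lowest of the 9.

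The promoters of 5 members on which the results turn are printed to show the sequence at the start of genes that moved with or apart from the rest. RefSeq promoters of the build GRCm38.p6, from 250 bases before to 50 bases after the start, were found for 67 of the 76 members. Mrpl28, Mrps6 and Mrps12 are shown because they had the largest mean falls over IL_6h and IL_24h against Ctrl_0h. Mrpl52 and Mrpl45 were chosen after their values were seen, because they were raised by TNF at 6 h both with and without IL. The intervals are chr17:26123253-26123552 (plus strand) for Mrpl28, chr16:92058086-92058385 (plus) for Mrps6, chr7:28741772-28742071 (minus) for Mrps12, chr14:54426659-54426958 (plus) for Mrpl52 and chr11:97315466-97315765 (plus) for Mrpl45, whose gene record begins upstream of this start. Capitals mark matches to the 6 motifs given after the sequences.
Mrpl28: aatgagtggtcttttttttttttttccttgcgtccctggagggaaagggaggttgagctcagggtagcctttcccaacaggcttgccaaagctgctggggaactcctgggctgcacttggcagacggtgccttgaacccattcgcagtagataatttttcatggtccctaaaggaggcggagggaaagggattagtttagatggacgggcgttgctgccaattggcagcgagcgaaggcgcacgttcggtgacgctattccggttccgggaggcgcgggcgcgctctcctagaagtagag
Mrps6: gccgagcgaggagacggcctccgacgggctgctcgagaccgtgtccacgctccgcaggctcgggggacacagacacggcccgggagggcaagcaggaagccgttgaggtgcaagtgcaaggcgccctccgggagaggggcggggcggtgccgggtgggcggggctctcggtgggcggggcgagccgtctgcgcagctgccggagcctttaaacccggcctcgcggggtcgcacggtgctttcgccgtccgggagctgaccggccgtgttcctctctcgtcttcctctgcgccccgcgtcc
Mrps12: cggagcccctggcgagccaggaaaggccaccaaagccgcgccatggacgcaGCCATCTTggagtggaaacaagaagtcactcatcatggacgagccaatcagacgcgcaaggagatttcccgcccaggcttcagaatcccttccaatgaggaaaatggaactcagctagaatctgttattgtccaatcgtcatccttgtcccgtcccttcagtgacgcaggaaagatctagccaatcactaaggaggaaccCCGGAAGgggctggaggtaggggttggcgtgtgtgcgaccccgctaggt
Mrpl52: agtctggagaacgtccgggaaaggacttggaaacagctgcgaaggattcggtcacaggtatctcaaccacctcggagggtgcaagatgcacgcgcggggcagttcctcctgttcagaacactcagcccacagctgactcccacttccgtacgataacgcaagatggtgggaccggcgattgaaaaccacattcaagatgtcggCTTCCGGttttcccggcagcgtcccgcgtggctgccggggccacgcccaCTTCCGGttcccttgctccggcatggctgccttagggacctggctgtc
Mrpl45: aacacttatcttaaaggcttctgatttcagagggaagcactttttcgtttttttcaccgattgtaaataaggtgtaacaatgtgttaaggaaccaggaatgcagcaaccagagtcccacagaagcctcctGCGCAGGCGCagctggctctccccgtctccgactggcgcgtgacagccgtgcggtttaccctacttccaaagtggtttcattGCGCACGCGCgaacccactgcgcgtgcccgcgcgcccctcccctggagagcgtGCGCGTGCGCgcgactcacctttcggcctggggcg

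Motifs were searched on both strands of the members' promoters and of all 27025 promoters in the table, at the first listed start of each symbol. The 27025 include genes not among the 15581 tested, whereas every member was tested. The shares among tested genes alone were not counted. The site of NRF1, a known regulator of nuclear genes for mitochondrial proteins, searched as GCGC and TGCGC with 1 base between them, was in 13 members' promoters (19.4%), against 4.78% of all promoters. The ETS motif CCGGAAG, bound by the factor GABP among others, was in 23 (34.3%), against 9.12%. The YY1 motif AAGATGGC was in 12 (17.9%), against 2.88%. The E-box CACGTG was in 5 (7.46%), against 7.24%. The NF-kB motif, GGGA and TTCC with 2 bases between, was in 1 (1.49%), against 1.43%, and the STAT6 motif, TTC and GAA with 4 bases between, in 2 (2.99%), against 6.99%. NF-kB and STAT6 act downstream of TNF and of IL-4 with IL-13. Of the printed promoters, Mrpl45 held 3 NRF1 matches, Mrpl52 2 ETS matches and Mrps12 an ETS and a YY1 match, while those of Mrpl28 and Mrps6 held none. A match describes these letters in this window and not binding.

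The first question was what TNF alone does to the family. After 6 h, 7 members were raised and 12 lowered against untreated cells, and 57 were not called. The raised were Mrpl52, Mrps18b, Mrpl45, Mrpl38, Mrps10, Mrps2 and Mrpl24, and the largest falls were those of Mrpl28, Mrps25, Mrps6 and Mrps26, with members of both kinds in each direction. Of all genes tested, 18.8% were raised and 20.5% lowered, against 9.21% and 15.8% of the members, so the members' shares lay below those of all genes. The median log2 fold change was -0.06 for the members, -0.04 for all genes and -0.11 for genes of 281 codons or fewer. The large subunit had 4 raised and 6 lowered of 49, and the small subunit 3 raised and 5 lowered of 26.

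Mrpl52, a large-subunit protein specific to mitochondria on chromosome 14 (54426909 to 54429750), had 91, 71.8 and 78 CPM in TNF_6h libraries, against 36.6, 49 and 31 CPM in Ctrl_0h libraries. All TNF_6h libraries were above all Ctrl_0h libraries, and the log2 fold change was 1.04 ± 0.18 (adjusted p = 0.000157). Mmp14, a matrix metalloproteinase gene that begins 1847 bases after Mrpl52 on the same strand, had 633, 511 and 547 CPM in TNF_6h libraries, against 2, 8.28 and 1.21 CPM in Ctrl_0h libraries. Whether transcripts of one gene were counted for the other was not tested.

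Mrpl45 (chromosome 11, 97314923 to 97329920), a protein near the exit tunnel that holds the ribosome at the inner membrane in mammals, had 81.6, 83.5 and 71.9 CPM in TNF_6h libraries, against 50.9, 45.6 and 44.9 CPM in Ctrl_0h libraries. The groups did not overlap, and the gene rose by 0.74 ± 0.11 on the log2 scale (adjusted p = 1.3e-05). Mrps18b, 1 of the 3 relatives of bacterial ribosomal protein S18 in mammals, had 9.01, 8.86 and 8.45 CPM in TNF_6h libraries, against 5.45, 4.06 and 5.87 CPM in Ctrl_0h libraries, a rise of 0.77 ± 0.15 (adjusted p = 0.000491). It lies on chromosome 17 (35910380 to 35916440) and overlaps the antisense gene Gm16279 by 141 bases, so its counts may hold reads of both. Mrpl38, a large-subunit relative of phosphatidylethanolamine-binding proteins, averaged 51.1 ± 4.32 CPM in TNF_6h and 35.9 ± 3.47 CPM in Ctrl_0h libraries (SD, n = 3 each), a rise of 0.51 ± 0.14 (adjusted p = 0.00825).

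Mrpl28 (chromosome 17, 26123503 to 26126613) had 87.7, 76 and 70.3 CPM in TNF_6h libraries, against 164, 211 and 162 CPM in Ctrl_0h libraries. Each TNF_6h library was far below each Ctrl_0h library, and the gene fell by 1.20 ± 0.21 on the log2 scale (adjusted p = 0.000171). The gene Pgap6 ends 248 bases before Mrpl28 on the same strand and had a log2 fold change of -1.44 in this comparison. Mrps6, a small-subunit protein on chromosome 16 (92058336 to 92112227), had 43.4, 41.5 and 38.4 CPM in TNF_6h libraries, against 63.4, 75 and 64.3 CPM in Ctrl_0h libraries. These did not overlap either, and the fall was 0.72 ± 0.16 (log2 fold change -0.72, adjusted p = 0.00119). Its gene overlaps Slc5a3, a sodium and myo-inositol cotransporter gene on the same strand, by 29138 bases, and Slc5a3 had -0.69 in the same comparison, so reads in the shared stretch cannot be assigned to one gene with certainty.

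Among the small-subunit proteins specific to mitochondria, Mrps25 had 31.9, 30.4 and 29.2 CPM in TNF_6h libraries, against 50.2, 61.3 and 50.7 CPM in Ctrl_0h libraries. Its log2 fold change was -0.83 ± 0.15 (adjusted p = 0.000203), and it overlaps the antisense gene Nr2c2 by 3547 bases, whose own value was 0.06. Mrps26 averaged 47.8 ± 1.63 CPM in TNF_6h and 75 ± 5.9 CPM in Ctrl_0h libraries (SD, n = 3 each), with a log2 fold change of -0.65 ± 0.17 (adjusted p = 0.00571). The other 8 lowered members had log2 fold changes between -0.30 (Mrps17) and -0.62 (Mrpl23), and the other 3 raised ones were Mrps10 at 0.39, Mrps2 at 0.31 and Mrpl24 at 0.30. Without Ctrl_0h replicate 2, which stands apart in detected genes, 4 members were raised. Without this library, TNF_6h replicate 3 and IL_TNF_24h replicate 1 together, 5 were lowered.

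After 24 h of TNF, 6 members were raised and 21 lowered against untreated cells, beside 20.9% raised and 24.4% lowered among all genes. The member median was -0.14, against -0.09 for all genes and -0.21 for genes of 281 codons or fewer. The large subunit had 4 raised and 13 lowered, and the small subunit 2 raised and 7 lowered. Both TNF comparisons use the same Ctrl_0h libraries.

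Mrpl39, a large-subunit relative of threonyl-tRNA synthetases on chromosome 16 (84718281 to 84735244), had 60.6, 62.6 and 58.6 CPM in TNF_24h libraries, against 26.5, 20.2 and 27.6 CPM in Ctrl_0h libraries. The 3 TNF_24h values were close together and above every other library in the study, and the rise was 1.29 ± 0.12 (adjusted p = 7.42e-08). At 6 h the gene had 32.7, 32.6 and 25.2 CPM in TNF_6h libraries and was not called against Ctrl_0h. Mir155hg, the host transcript of the microRNA miR-155, lies 3035 bases from Mrpl39 on the opposite strand and was not among the genes tested.

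Mrpl52 had 131, 106 and 69.7 CPM in TNF_24h libraries, against 36.6, 49 and 31 CPM in Ctrl_0h libraries, a rise of 1.39 ± 0.19 (adjusted p = 4.99e-06). Its 3 values were widely spread, but the lowest still exceeded every Ctrl_0h library. Mmp14 was again high, at 393, 379 and 333 CPM in TNF_24h libraries. Mrps18b averaged 8.38 ± 0.254 CPM in TNF_24h and 5.13 ± 0.95 CPM in Ctrl_0h libraries, a rise of 0.70 ± 0.15 (adjusted p = 0.000972). Mrps2, whose bacterial relative is ribosomal protein S2 and which overlaps an antisense gene by 374 bases, averaged 27.3 ± 2.75 CPM in TNF_24h and 20.6 ± 2.19 CPM in Ctrl_0h libraries (SD, n = 3 each), a rise of 0.40 ± 0.10 (adjusted p = 0.0029).

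Mrpl28 had 107, 82 and 55.1 CPM in TNF_24h libraries, below the 164, 211 and 162 CPM of Ctrl_0h, with a log2 fold change of -1.14 ± 0.21 (adjusted p = 0.000248). Mrpl49, a large-subunit protein specific to mitochondria, had 29.1, 24.4 and 21.9 CPM in TNF_24h libraries, against 46.6, 42.4 and 46.3 CPM in Ctrl_0h libraries, with a log2 fold change of -0.85 ± 0.12 (adjusted p = 1.13e-05). Mrps26 had 54, 43.8 and 28.3 CPM in TNF_24h libraries, against 75.2, 80.8 and 69 CPM in Ctrl_0h libraries (-0.84 ± 0.18, adjusted p = 0.000667). Mrps12, a protein of the decoding centre of the small subunit, had 61, 45.1 and 29 CPM in TNF_24h libraries, against 74.3, 88.6 and 72.4 CPM in Ctrl_0h libraries (-0.80 ± 0.21, adjusted p = 0.00408). In all 4 genes TNF_24h replicate 3 was the lowest of its group and no library of one group reached the other. Without that library 12 members were lowered, and without TNF_24h replicate 1, the highest, 27.

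The comparison of TNF_24h with TNF_6h asks how the response moves in time and uses no untreated cells. Here 2 members were raised and 5 lowered, beside 12.7% raised and 10.9% lowered among all genes, with medians of -0.08 for the members and 0.01 for all genes. Mrpl39 rose by 1.01 ± 0.12 (adjusted p = 7.05e-06) between the values given above. Mrpl45 went the other way, with 54.5, 49 and 41.5 CPM in TNF_24h libraries, against 81.6, 83.5 and 71.9 CPM in TNF_6h libraries, a log2 fold change of -0.71 ± 0.10 (adjusted p = 5.39e-05). The 24 h values lay next to the 50.9, 45.6 and 44.9 CPM of the untreated cells. Mrpl3, whose bacterial relative lies near the peptidyl transferase centre, averaged 63.7 ± 6.84 CPM in TNF_24h and 49.8 ± 2.94 CPM in TNF_6h libraries, a rise of 0.35 ± 0.10 (adjusted p = 0.014). The other lowered members were Mrpl41 (-0.47, adjusted p = 0.0403), Mrpl42 (-0.47, adjusted p = 0.0244), Mrpl17 (-0.46, adjusted p = 0.0262) and Mrpl24 (-0.32, adjusted p = 0.0137). Each of the first 3 lost its call without any 1 of the TNF_6h libraries or without TNF_24h replicate 3 (-0.28 to -0.36 then), and Mrpl3 without replicate 2 of either group. The counts here rest on single libraries: 15 members were lowered without TNF_24h replicate 1, 1 without TNF_24h replicate 3 or TNF_6h replicate 1, 2 without TNF_6h replicate 2 or 3, and 3 without TNF_24h replicate 2. The number raised was 1 without TNF_6h replicate 2 or TNF_24h replicate 2 and 4 without TNF_24h replicate 3.

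**Figure D2:**
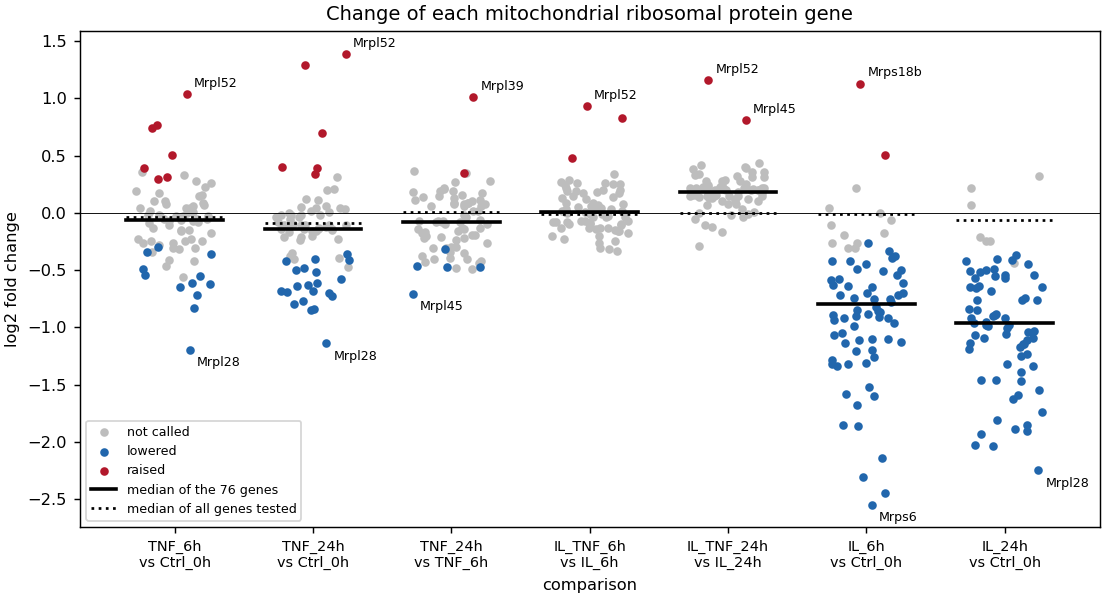
Log2 fold change of each of the 76 genes in the 7 comparisons (red, raised; blue, lowered; grey, not called at adjusted p under 0.05; solid line, median of the 76; dotted line, median of all genes tested). The medians of the TNF comparisons lie between -0.14 and 0.18, against -0.80 in IL_6h and -0.96 in IL_24h compared with Ctrl_0h.

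The next question was what TNF adds in cells that also receive IL-4 and IL-13. At 6 h, 3 members were raised and 0 lowered in IL_TNF_6h against IL_6h, beside 7.09% raised and 6.98% lowered among all genes. In edgeR's quasi-likelihood test 2 members were lower at an unadjusted p under 0.05, and DESeq2 called 0 lowered and 4 raised. The median was 0.01 for the members and -0.01 for all genes. The 3 raised members, Mrpl52, Mrpl39 and Mrpl45, are all large-subunit proteins.

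Mrpl52 had 40.5, 37.9 and 44.7 CPM in IL_TNF_6h libraries, against 21.9, 21.8 and 20.9 CPM in IL_6h libraries, a rise of 0.93 ± 0.19 (adjusted p = 0.0013). Mrpl39 had 33.2, 30.2 and 30 CPM in IL_TNF_6h libraries, against 18.6, 16.2 and 17.6 CPM in IL_6h libraries, a rise of 0.83 ± 0.12 (adjusted p = 6.81e-05). Mrpl45 had 49.9, 46 and 48.3 CPM in IL_TNF_6h libraries, against 36, 35.9 and 31.7 CPM in IL_6h libraries, a rise of 0.48 ± 0.10 (adjusted p = 0.00313). In all 3 genes every IL_TNF_6h library was above every IL_6h library. Mmp14, beside Mrpl52, had 749, 727 and 478 CPM in IL_TNF_6h libraries, against 78.9, 51.5 and 74 CPM in IL_6h libraries.

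At 24 h, 2 members were raised and 0 lowered in IL_TNF_24h against IL_24h, beside 6.03% raised and 5.08% lowered among all genes. No member was lower at an unadjusted p under 0.05 in edgeR's quasi-likelihood test (0 of 76), 16 were higher (10.8% of all genes were), and DESeq2 called 4 raised and 0 lowered. The log2 fold change was above 0 for 68 members and below 0 for 8, with a median of 0.18, while 50.2% of all genes were above 0 and their median was 0.00. Mrpl52 had 22, 21.3 and 20.9 CPM in IL_TNF_24h libraries, against 8.57, 9.18 and 10.9 CPM in IL_24h libraries, a rise of 1.16 ± 0.19 (adjusted p = 0.000235). Mmp14 had 134, 80.2 and 72.7 CPM in IL_TNF_24h libraries, against 1.89, 2.09 and 1.4 CPM in IL_24h libraries. Mrpl45 had 45.6, 45.1 and 42.6 CPM in IL_TNF_24h libraries, against 26.3, 23.8 and 26.2 CPM in IL_24h libraries, a rise of 0.81 ± 0.11 (adjusted p = 2.22e-05). Neither gene's groups overlapped. A fit of these 6 libraries alone called 7 members raised. IL_TNF_24h replicate 1 stood apart from replicates 2 and 3 in genes outside the family. Nos2 had 269, 46.2 and 44.6 CPM and Retnla 72.9, 315 and 273 CPM in the IL_TNF_24h libraries. With each library left out in turn, the counts stayed at 2 raised and 0 lowered.

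**Figure D3:**
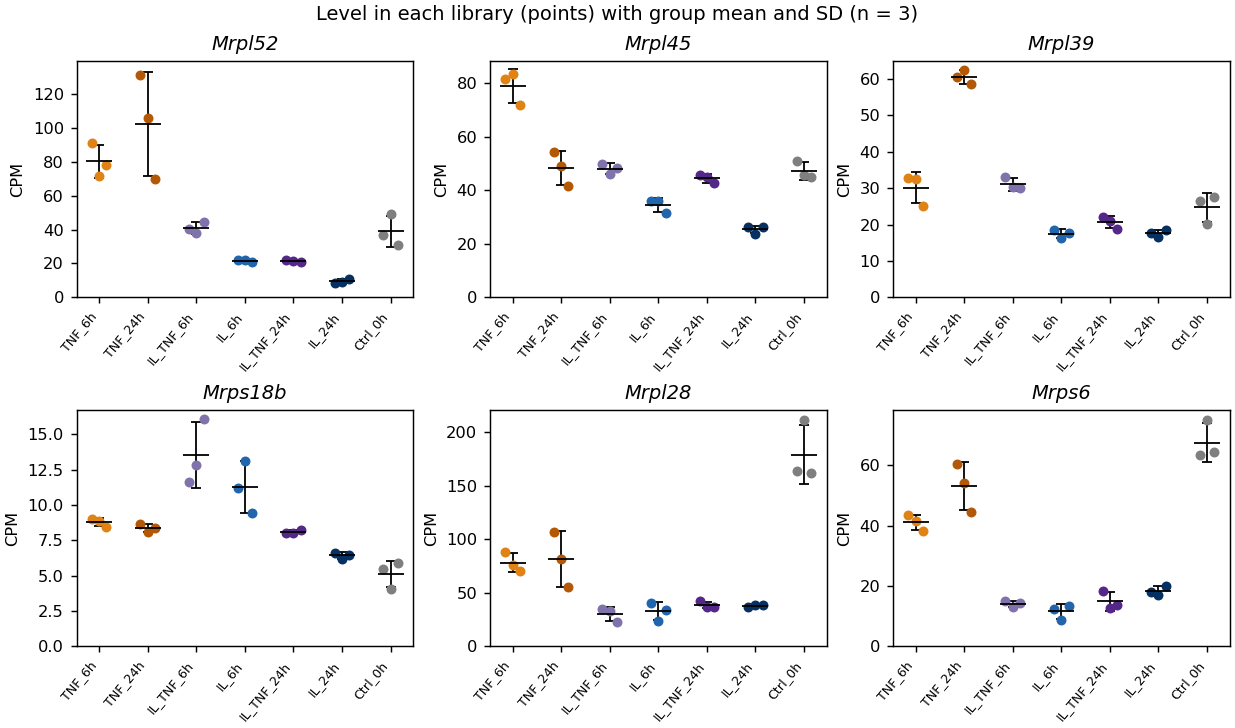
CPM of 6 of the genes in each library (points), with the group mean and SD (n = 3), IL or TNF groups to the left and Ctrl_0h at the right. Mrpl52 and Mrpl45 are higher with TNF than without it both alone at 6 h and with IL at 6 h and 24 h, Mrpl39 is highest in TNF_24h at 60.6 CPM, and Mrpl28 and Mrps6 are highest in Ctrl_0h.

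More members were called between cells given IL-4 and IL-13 and untreated cells than between any other pair of groups compared. In IL_6h, 63 members were lowered and 2 raised, and in IL_24h 69 were lowered and 0 raised, beside 31.6% lowered and 32.8% raised among all genes at 6 h and 32.6% and 31.7% at 24 h. The member medians were -0.80 and -0.96, against -0.01 and -0.06 for all genes. Both comparisons share the Ctrl_0h libraries, and both set libraries of one set against the other. At 24 h, 2 members were higher at an unadjusted p under 0.05 in edgeR's quasi-likelihood test and DESeq2 called 0 raised.

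By subunit, 42 of 49 large-subunit and 20 of 26 small-subunit members were lowered in IL_6h, each with a median of -0.82, and in IL_24h 46 and 22, with medians of -0.96 and -0.98. Members with a bacterial counterpart by name had 37 of 45 lowered in IL_6h (median -0.90) and 41 in IL_24h (median -0.98). The 30 without one had 25 of 30 lowered in IL_6h (median -0.71) and 27 in IL_24h (median -0.81). The difference between these kinds was not tested.

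Mrps6 had 12.5, 8.86 and 13.4 CPM in IL_6h libraries, against 63.4, 75 and 64.3 CPM in Ctrl_0h libraries, with a log2 fold change of -2.55 ± 0.17 (adjusted p = 3.54e-10). Slc5a3, which its gene overlaps, had -0.07 in that comparison. Mrpl28 had 40.3, 23.8 and 34.4 CPM in IL_6h libraries, against 164, 211 and 162 CPM in Ctrl_0h libraries (-2.45 ± 0.22, adjusted p = 2.31e-08), and its upstream neighbour Pgap6 had -0.63. Mrps12 (chromosome 7, 28739641 to 28741821) had 18.4, 11.1 and 18.1 CPM in IL_6h libraries, against 74.3, 88.6 and 72.4 CPM in Ctrl_0h libraries (-2.31 ± 0.22, adjusted p = 3.59e-08). Sars2, the mitochondrial seryl-tRNA synthetase gene, starts 135 bases away on the opposite strand and had -1.31. Mrps21, a small-subunit protein with a bacterial relative, had 47.9, 25.9 and 43.1 CPM in IL_6h libraries, against 158, 206 and 149 CPM in Ctrl_0h libraries (-2.14 ± 0.23, adjusted p = 2.29e-07). In all 4 genes the highest IL_6h library was below the lowest Ctrl_0h library, and IL_6h replicate 2 was the lowest.

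In the opposite direction, Mrps18b had 11.2, 13.1 and 9.45 CPM in IL_6h libraries, against 5.45, 4.06 and 5.87 CPM in Ctrl_0h libraries, a rise of 1.13 ± 0.15 (adjusted p = 3.04e-06). Mrps2 had 29.3, 29.8 and 29 CPM in IL_6h libraries, against 21.9, 18.1 and 21.8 CPM in Ctrl_0h libraries, a rise of 0.51 ± 0.10 (adjusted p = 0.000191). Both genes have an antisense gene overlapping them. The 11 members not called in IL_6h were Mrpl1, Mrpl10, Mrpl24, Mrpl32, Mrpl38, Mrpl47, Mrpl50, Mrps5, Mrps10, Mrps22 and Mrps34.

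In IL_24h, Mrpl28 had 36.5, 38.7 and 38.2 CPM, against 164, 211 and 162 CPM in Ctrl_0h libraries, with a log2 fold change of -2.25 ± 0.22 (adjusted p = 7.09e-08), while Pgap6 had -1.47. Mrps24, the relative of bacterial S3, had 24.8, 27.2 and 28.6 CPM in IL_24h libraries, against 107, 121 and 102 CPM in Ctrl_0h libraries (-2.04 ± 0.18, adjusted p = 1.81e-08). Mrpl52 had 8.57, 9.18 and 10.9 CPM in IL_24h libraries, against 36.6, 49 and 31 CPM in Ctrl_0h libraries (-2.03 ± 0.19, adjusted p = 4.17e-08). Mrpl23, a protein at the exit of the peptide tunnel, had 24.6, 25.1 and 29 CPM in IL_24h libraries, against 94.8, 119 and 85.6 CPM in Ctrl_0h libraries (-1.93 ± 0.19, adjusted p = 8.42e-08). None of these groups overlapped. The number raised was 1 without Ctrl_0h replicate 1 or IL_24h replicate 2 and 2 without Ctrl_0h replicate 3. The 7 members not called in IL_24h were Mrpl1, Mrpl10, Mrpl50, Mrps2, Mrps5, Mrps18b and Mrps34.

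Across all genes the difference between IL and Ctrl_0h followed coding length. Genes of 281 codons or fewer had a median log2 fold change of -0.60 in IL_6h and -0.69 in IL_24h, and those of 732 codons or more 0.45 and 0.51. Over the 76 members, which share the same libraries, the correlation of log2 fold change with log coding length was r = 0.49 (rho = 0.54) in IL_6h and 0.46 (rho = 0.50) in IL_24h, against 0.27 in both TNF_6h and TNF_24h. When the trend with length was removed from each library, 39 members were lowered and 7 raised in IL_6h (all genes, 29.4% and 32.5%) and 52 lowered and 5 raised in IL_24h (all genes, 30.6% and 30.2%). The member medians were then -0.25 and -0.40, against 0.02 and -0.04 for all genes. Mrpl28 (-2.08), Mrps6 (-1.77) and Mrps12 (-1.58) still had the largest falls in IL_6h, and Mrpl28 (-1.85), Mrps24 (-1.38), Mrpl52 (-1.20) and Mrpl23 (-1.20) in IL_24h. Mrps18b (1.51 and 0.72), Mrps2 (0.80 and 0.53), Mrpl50 (0.60 and 0.74) and Mrpl36 (0.50 and 0.52) were then raised at 6 h and 24 h, although Mrpl36 was called lowered in both (-0.39 and -0.37) and Mrpl50 not called (-0.06 and 0.07) before this step. Whether the trend came with the cytokines or with the set of libraries cannot be told apart.

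**Figure D4:**
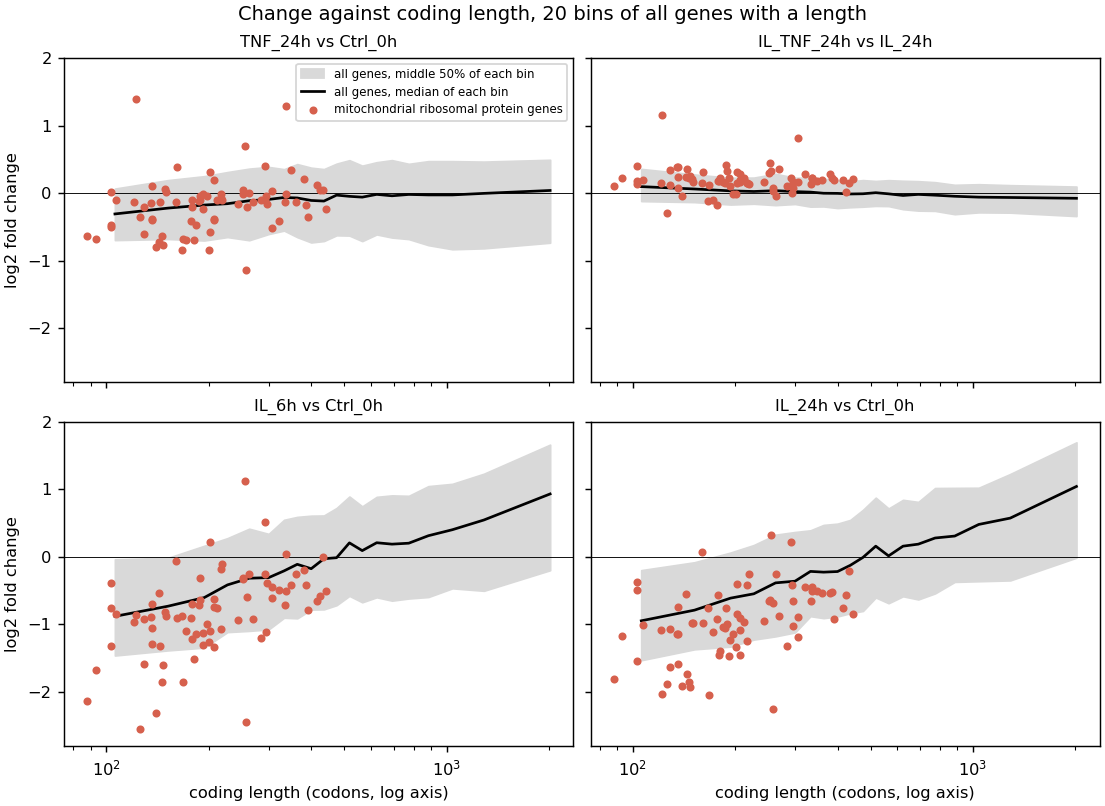
Log2 fold change against coding length in codons (log axis) in 4 comparisons, for the 76 genes (points) and for all genes with a length in 20 bins (line, median; band, middle 50%). The line rises with length in IL_6h and IL_24h compared with Ctrl_0h, where it runs between -0.88 and 0.93 and between -0.95 and 1.04 from the shortest to the longest bin. It spans less in TNF_24h against Ctrl_0h (-0.31 to 0.04) and in IL_TNF_24h against IL_24h (0.10 to -0.08), and most of the 76 genes lie at the short end.

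The effect of TNF with IL (IL_TNF minus IL) was then set against its effect alone (TNF minus Ctrl_0h), a difference on the log2 scale in which the second effect also carries time in culture. Each effect comes from its own set of libraries, so IL and the set cannot be told apart in the difference. The sets also differed in Ifi202b at 6 h and in Xist and Ddx3y at 24 h. At 6 h this difference was above 0 and called for 5 members and below 0 for 0, beside 9.27% and 9.13% of all genes. In edgeR's quasi-likelihood test 3 members were lower at an unadjusted p under 0.05, and DESeq2 called 7 higher and 1 lower. Mrpl28 had the largest difference, 1.07 ± 0.30 (adjusted p = 0.0178). Its log2 fold change was -1.20 with TNF alone, and it was not called in IL_TNF_6h against IL_6h, with 35.1, 32.6 and 22.4 CPM in IL_TNF_6h libraries and 40.3, 23.8 and 34.4 CPM in IL_6h libraries. Mrps6 differed by 1.01 ± 0.23 (adjusted p = 0.00377), with 15, 13 and 14.4 CPM in IL_TNF_6h libraries and 12.5, 8.86 and 13.4 CPM in IL_6h libraries. Mrpl51, a large-subunit protein specific to mitochondria, differed by 0.72 ± 0.19 (adjusted p = 0.0105). It had 43.3, 35.3 and 40.8 CPM in IL_TNF_6h and 38.3, 31.5 and 36.5 CPM in IL_6h libraries, and 77.5, 72 and 67.8 CPM in TNF_6h and 102, 114 and 102 CPM in Ctrl_0h libraries. The count fell to 1 without IL_6h replicate 2, to 2 without TNF_6h replicate 3 and to 3 without any 1 of the IL_TNF_6h libraries, while 2 were below 0 without IL_6h replicate 2 or IL_TNF_6h replicate 3. The call of Mrpl28 was lost without IL_6h replicate 2 (0.81), IL_TNF_6h replicate 1 (0.94), IL_TNF_6h replicate 2 (1.00) or TNF_6h replicate 3 (1.00), and that of Mrpl51 without IL_6h replicate 2 (0.57).

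At 24 h the difference was called above 0 for 19 members and below 0 for 1, beside 11.6% and 12.5% of all genes, with medians of 0.32 for the members and 0.08 for all genes. Genes of 281 codons or fewer, among which 56 of the 76 lie, had a median of 0.23, and with the length trend removed the medians were 0.21 for the members and 0.05 for all genes. Mrpl28 differed by 1.18 ± 0.30 (adjusted p = 0.00812), with 42.3, 37 and 37 CPM in IL_TNF_24h and 36.5, 38.7 and 38.2 CPM in IL_24h libraries. Mrpl23 differed by 1.01 ± 0.27 (adjusted p = 0.00926), with 34, 29.5 and 29.9 CPM in IL_TNF_24h and 24.6, 25.1 and 29 CPM in IL_24h libraries, and 76.7, 59 and 40.7 CPM in TNF_24h and 94.8, 119 and 85.6 CPM in Ctrl_0h libraries. The member with the opposite sign was Mrpl39, at -1.05 ± 0.17 (adjusted p = 0.000196). It had 22.2, 21 and 18.8 CPM in IL_TNF_24h and 17.6, 16.7 and 18.4 CPM in IL_24h libraries, beside the 60.6, 62.6 and 58.6 CPM of TNF_24h. The number above 0 was 31 without TNF_24h replicate 1, 9 without IL_24h replicate 2, 10 without TNF_24h replicate 3, 11 without IL_24h replicate 1 and 12 without IL_TNF_24h replicate 1. The change of the TNF effect in IL-treated cells with time, 24 h minus 6 h, was called above 0 for 0 members and below 0 for 0, beside 1.89% and 1.78% of all genes. The IL libraries of 6 h and of 24 h also differed in Xist, Ddx3y and Ifi202b, so time and this difference between libraries cannot be told apart. In edgeR's quasi-likelihood test 9 members were above 0 and 2 below 0 at an unadjusted p under 0.05, and DESeq2 called 1 in each direction.

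Among members with a role beyond the ribosome's core, Mrpl12, the stalk protein also reported to bind the mitochondrial RNA polymerase, had a log2 fold change of -0.16 in TNF_6h and -0.58 in TNF_24h (adjusted p = 0.00629). The 24 h call was lost without TNF_24h replicate 3, at -0.42. It had -1.10 in IL_6h and -0.84 in IL_24h, both called, and at 24 h -0.29 (adjusted p = 0.0813) once the length trend was removed. Mrpl58, a peptidyl-tRNA hydrolase of the large subunit, had -1.34 in IL_6h and -1.46 in IL_24h and was not called with TNF alone. Its value in TNF_24h was -0.39, and -0.58 and called without TNF_24h replicate 1. Mrpl44, which resembles the double-strand RNA nuclease RNase III, had -0.72 in IL_6h and -0.65 in IL_24h, both called. Its values of -0.03 in TNF_6h and -0.13 in TNF_24h were not called. Mrps30, a large-subunit protein specific to mitochondria, had -0.50 in IL_6h (adjusted p = 0.0405) and -0.85 in IL_24h, and the 6 h call was lost without any 1 of the 3 Ctrl_0h libraries (-0.47 to -0.51), IL_6h replicate 1 (-0.34) or IL_6h replicate 3 (-0.42).

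Among the 3 genes related to bacterial S18, of which Mrps18a and Mrps18b are counted by name among the 30, Mrps18b was raised by TNF at both times and in IL_6h, and its 6.64, 6.21 and 6.44 CPM in IL_24h libraries were not called against Ctrl_0h (0.32, adjusted p = 0.0702; 0.44 and called without Ctrl_0h replicate 3). Mrps18a, a large-subunit protein, had -0.99 in IL_6h and -1.15 in IL_24h, with 0.09 and -0.04 in TNF_6h and TNF_24h, which were not called. Its gene overlaps the antisense gene Rsph9 by 6871 bases, so its counts may hold reads of both. Rsph9 had -1.64 in IL_6h, -2.70 in IL_24h, 1.24 in TNF_6h and -0.47 in TNF_24h. Mrps18c had -1.32 in IL_6h and -1.74 in IL_24h, with 8.41, 8.45 and 9.22 CPM in IL_6h libraries, 6.06, 6.93 and 6.48 CPM in IL_24h libraries and 20.4, 26.1 and 18.2 CPM in Ctrl_0h libraries. It was not called with TNF. Mrps36, which is no ribosomal subunit, had -0.36 in TNF_6h (adjusted p = 0.043, not called in 5 of 6 fits without 1 library of the pair), -0.50 in TNF_24h (adjusted p = 0.00607), -0.75 in IL_6h and -0.49 in IL_24h, all called. It is 1 of the shortest members, and with the length trend removed its values were 0.12 (adjusted p = 0.406) in IL_6h and 0.39 (adjusted p = 0.00875) in IL_24h.

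Genes that work with the mitochondrial ribosome were read beside it. Of 5 subunits whose symbols lie outside the family, 4 were lowered and 1 raised in both IL_6h and IL_24h. Lowered were Chchd1 (-1.47 and -1.60), Aurkaip1 (-1.39 and -1.46), Gadd45gip1 (-1.24 and -1.36) and Dap3 (-0.77 and -0.90), and with the length trend removed 4 were lowered and 0 raised at each time. Of 26 assembly factors, 6 were raised and 12 lowered in IL_6h and 0 and 15 in IL_24h. Rbfa, an assembly factor of the small subunit, was lowered in TNF_6h (-0.97), TNF_24h (-1.44), IL_TNF_6h against IL_6h (-0.94), IL_6h (-2.04) and IL_24h (-2.06). Of 14 translation factors 5 were raised and 3 lowered in IL_6h, and 5 and 6 in IL_24h, with the elongation factors Tufm at -0.89 and -0.73 and Tsfm at -1.03 and -1.04. With TNF 3 of the 14 were raised and 0 lowered at either time. Of 20 mitochondrial aminoacyl-tRNA synthetases 3 were raised and 2 lowered in TNF_6h and 1 and 7 in TNF_24h. These counts stand beside 32.8% raised and 31.6% lowered of all genes in IL_6h, 31.7% and 32.6% in IL_24h, 18.8% and 20.5% in TNF_6h, and 20.9% and 24.4% in TNF_24h. The translation factors had 35.7% raised and 21.4% lowered in IL_6h, and 35.7% and 42.9% in IL_24h.

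The genes of mitochondrial DNA had a different pattern in TNF-treated cells. The list holds the messages that the ribosome translates and its ribosomal RNAs, mt-Rnr1 and mt-Rnr2. Of 15, 1 was raised and 10 were lowered in TNF_6h against Ctrl_0h (median -1.03), and 12 were raised and 1 lowered in TNF_24h against TNF_6h (median 1.49). Against Ctrl_0h, 4 were raised and 0 lowered in TNF_24h. Of all genes, 18.8% were raised and 20.5% lowered in TNF_6h, and 20.9% and 24.4% in TNF_24h. In TNF_24h against TNF_6h, 12.7% of all genes were raised and 10.9% lowered. The cytochrome b gene mt-Cytb had -1.46 in TNF_6h against Ctrl_0h and 1.96 in TNF_24h against TNF_6h. Every listed message had a lower mean in TNF_6h than in Ctrl_0h libraries, while both ribosomal RNAs had higher means. The mean of mt-Rnr1 was 537 CPM in TNF_6h, 60.2 CPM in Ctrl_0h and 31.7 CPM in TNF_24h libraries. That of mt-Rnr2 was 244, 57.5 and 31.2 CPM. In Ctrl_0h replicate 2 these RNAs had 0.972 and 1.94 CPM. In the TNF_24h libraries mt-Rnr1 had 91.2, 2.21 and 1.75 CPM and mt-Rnr2 88.8, 3.01 and 1.75 CPM. The TNF_24h means of both thus rest mostly on replicate 1. Of 30 cell cycle genes, 30 were lowered in TNF_6h and 30 in IL_6h (31.6% of all genes), and 27 were raised in TNF_24h against TNF_6h. The part of these changes in those of the mitochondrial ribosomal protein genes was not tested.

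Of 81 nuclear subunits of the respiratory chain and ATP synthase, 73 were lowered and 3 raised in IL_6h (median -1.02), and 45 and 8 with the length trend removed (median -0.35). Of all genes, 31.6% were lowered and 32.8% raised in IL_6h, and 29.4% and 32.5% with the trend removed. In IL_TNF_24h against IL_24h, where members had 2 raised, 22 of the 81 were raised and 0 lowered, with a median of 0.41. Among all genes, 6.03% were raised and 5.08% lowered there. Cox5a (0.72), Atp5md (0.68) and Atp5l (0.63) had the largest rises of the 81. Of 76 cytosolic ribosomal protein genes, 74 were lowered and 1 raised in IL_6h (median -1.56) and in IL_24h (median -1.32). With the length trend removed, 66 were lowered in IL_6h and 63 in IL_24h. Of all genes, 32.6% were lowered and 31.7% raised in IL_24h, and 30.6% were lowered with the trend removed. Among 14 genes for mitochondrial transcription and its regulators, 8 were raised and 4 lowered in IL_6h (57.1% and 28.6%, against 32.8% and 31.6% of all genes), with the coactivator Ppargc1b at 2.48 in IL_6h and 3.61 in IL_24h.

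**Figure D5:**
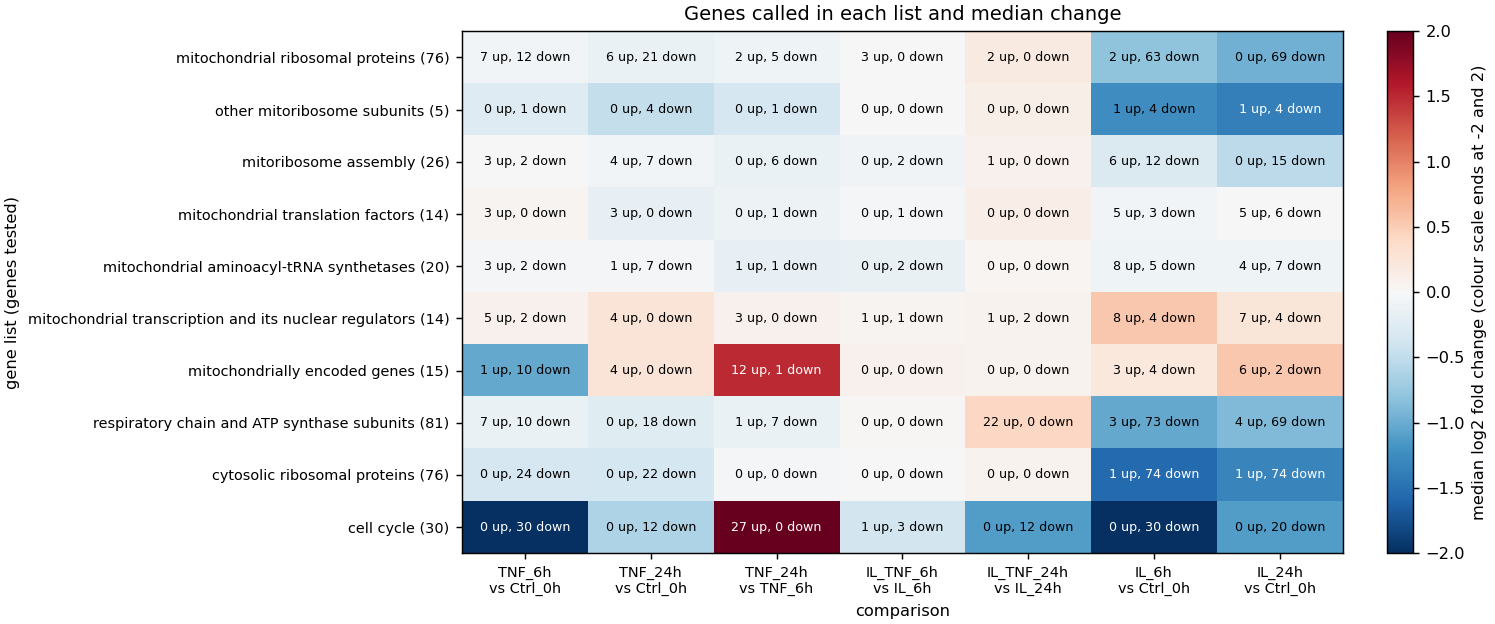
Number of genes called raised (up) or lowered (down) in 10 gene lists in the 7 comparisons, with the median log2 fold change as colour. The mitochondrial ribosomal protein genes, respiratory chain and cytosolic ribosomal protein genes are mostly lowered in IL_6h and IL_24h against Ctrl_0h, while the mitochondrially encoded genes are mostly raised in TNF_24h against TNF_6h (12 of 15).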

How the data were processed

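Messenger RNA was measured by sequencing total RNA, extracted with Trizol, in 21 libraries. The authors deposited raw counts per gene, in whole numbers. The submitters' processing notes name GRCm38 as the build, and TopHat2 2.0.12, Subread 1.6.3 with featureCounts, and edgeR 3.28.1 as tools. Which annotation and strand setting were used, and how read pairs were counted, is not given in the sources used here. The table holds 30373 values of 2 and 17808 values of 1, so many fragments may be counted once per mate. Identifiers were matched to symbols for 32832 of 47069, with 2678 older symbols replaced, and to positions in GRCm38.p6.

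The tests here ran in edgeR 4.0.16 (R 4.3.3, limma 3.58.1), with DESeq2 1.42.0 as an alternative. After filterByExpr and scaling by TMM factors (trimmed mean of M values), the counts of all 21 libraries entered a quasi-likelihood fit with a mean per group, at an adjusted p threshold of 0.05. The biological coefficient of variation was 22.8%. Coding lengths, known for 91.6% of tested genes with a symbol, came from GENCODE vM1 transcripts. Their trend was taken per library by lowess (span 0.5) and removed as an offset. The fit and the removal of the trend were also run on simulated counts with known changes placed in IL_TNF_6h, and the outcome is not given here. Such counts cannot decide whether the trend came with the cytokines or with the set of libraries.

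The named genes are, per comparison of a pair of groups, the 4 called members with the largest rise and the 4 with the largest fall, up to 4 that move against the majority, for differences of effects the 3 largest, and Mrpl12, Mrpl58, Mrps36, Mrpl44, Mrps30, Mrps12, Mrps18a, Mrps18b and Mrps18c. Other members and list genes were named after their values were seen. The members and gene lists were chosen with earlier results of these data known. The results were recomputed with other size factors and another test (both of DESeq2), with other filters (none, or at least 1 CPM in 3 libraries), in fits of the compared groups only, with a replicate block, without each library, without 3 libraries together, and with the length trend removed.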

Additional observations from a re-analysis of the deposited data

Results flagged for a closer look

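Each result here was singled out because a test of the difference between 2 effects of TNF, in cells with IL-4 and IL-13 and in cells without them, passed adjusted p under 0.05 in edgeR's quasi-likelihood test. At 6 h the effect with IL was the higher for 5 members, among them Mrpl28 (difference 1.07 on the log2 scale), Mrps6 (1.01) and Mrpl51 (0.72). It was the higher for 9.27% of all genes. At 24 h it was the higher for 19 members, among them Mrpl28 (1.18) and Mrpl23 (1.01), and the lower for 1, Mrpl39 (-1.05). Among all genes it was the higher for 11.6% and the lower for 12.5%. The difference of Mrpl39 is that of a gene at 20.7 ± 1.73 CPM in IL_TNF_24h, 17.6 ± 0.814 CPM in IL_24h, 60.6 ± 2 CPM in TNF_24h and 24.8 ± 3.96 CPM in Ctrl_0h libraries (SD, n = 3 each). Mrpl28 had 38.7 ± 3.07 CPM in IL_TNF_24h, 37.8 ± 1.14 CPM in IL_24h, 81.4 ± 26 CPM in TNF_24h and 179 ± 27.4 CPM in Ctrl_0h libraries. The effect of TNF without IL is taken against cells at 0 h, so time in culture and TNF cannot be told apart in it. As each effect comes from its own set of libraries, IL and the set cannot be told apart in the difference either.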

How the results depend on the processing

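For the genes named by rule, 1370 values over all alternatives kept their direction and their side of the threshold, 51 lost the call, 15 gained one and 2 changed sign, both of Mrps36 with the length trend removed (0.12 in IL_6h and 0.39 in IL_24h). This tally leaves out the other members, of which Mrpl36 was called lowered in both comparisons and raised with the length trend removed (0.50 and 0.52). Of the counts, 257 stayed within 1.5 times and 57 moved further. TNF_6h against Ctrl_0h had 4 raised with no filter and 5 lowered without the 3 libraries. TNF_24h against TNF_6h had 1 raised and 3 lowered with no filter, 4 raised and 9 lowered with the length trend removed, 9 lowered with the strict filter and with DESeq2, and 8 with only the groups compared. IL_TNF_24h against IL_24h had 4 raised with the strict filter and with DESeq2 and 7 with only the groups compared. With the length trend removed, IL_6h had 7 raised and 39 lowered and IL_24h 5 raised, and IL_24h had 1 raised with only the groups compared. The difference at 6 h was above 0 for 3 members with no filter and 2 without the 3 libraries, and below 0 for 1 with the length trend removed and with DESeq2. At 24 h it was above 0 for 10 without the 3 libraries and below 0 for 2 with the length trend removed. The change with time was above 0 for 1 without the 3 libraries and with DESeq2, and below 0 for 2 without the 3 libraries and 1 with DESeq2 size factors, the DESeq2 test, the strict filter, the length trend removed or only the groups compared. The cause of these shifts was not tested.

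With each library left out in turn, TNF_6h had 4 to 8 raised and 8 to 12 lowered, TNF_24h 5 to 7 raised and 12 to 27 lowered, and TNF_24h against TNF_6h 1 to 4 raised and 1 to 15 lowered. IL_TNF_6h had 3 raised and 0 lowered and IL_TNF_24h 2 raised and 0 lowered in each such fit. IL_6h had 2 raised and 59 to 63 lowered, and IL_24h 0 to 2 raised and 66 to 72 lowered. The difference at 6 h was above 0 for 1 to 5 and below 0 for 0 to 2 members, that at 24 h above 0 for 9 to 31 and below 0 for 1, and the change with time was called for 0.

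Replicate numbers did not pair the libraries, since in 0 of 21 pairs of groups were all same-number correlations over 0.1. For IL_6h and IL_TNF_6h these were 0.363, -0.31 and -0.269 for numbers 1, 2 and 3. There mt-Nd4 had 500, 1080 and 709 CPM in IL_6h libraries and 554, 747 and 1219 CPM in IL_TNF_6h libraries. A pairing under other numbers was not tested, and no fit here takes account of one. With the number as a replicate block, 8 members were lowered in TNF_24h against TNF_6h, 14 in TNF_6h and 20 were above 0 in the difference at 24 h, and the other counts of calls stayed within 1.5 times.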
